A study of Mus musculus with 6 samples.

Results

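Liver expression of 10 glucocorticoid-responsive genes (Klf15, Klf9, Ddit4, Fkbp5, Tsc22d3, Sgk1, Mt1, Mt2, Dusp1 and Cdkn1a) was followed mouse by mouse in B6.C3H-6T and C57BL/6J. They are 10 of the 18194 genes that the array measured, and 23 of its 45037 probe sets are paired with one of them and no other gene. B6.C3H-6T is a congenic strain that the series describes as low in serum IGF-1, and it is known from its making, not from the labels, to hold a stretch of C3H chromosome 6 on a C57BL/6J background. The mice, 3 B6.C3H-6T and 3 C57BL/6J, were chow-fed females aged 8 weeks, and no RNA was pooled. Whole liver was measured, so that fewer cells of a type and less RNA per cell cannot be told apart.

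Klf15 and Ddit4 were selected on their measured strain difference, since an earlier look at these arrays had placed them among the higher genes of B6.C3H-6T. The other 8 genes were added, with those results known, as genes that glucocorticoids are known to induce. The strain differences of all 10 are therefore given as a description, and where limma's calls over all genes are counted for them, the counts are not used as a test of these genes.

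Glucocorticoids such as corticosterone, the main one in mice, enter the cell and bind the glucocorticoid receptor, which moves to the nucleus and binds glucocorticoid response elements in DNA. In liver the hormone acts in fasting and stress and around the daily rise of corticosterone, and it raises genes of amino acid breakdown and glucose production. Many of its target genes also answer to other cues: insulin, amino acid shortage, metals, growth signals or the clock.

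Of the 10 genes, 4 had all 3 B6.C3H-6T mice above all 3 C57BL/6J mice. These were Klf15, Ddit4, Tsc22d3 and Dusp1, with differences from 0.48 to 0.87 on the log2 scale. In 5 others the strains overlapped and the mean difference lay between 0.01 and 0.23, and Fkbp5, which encodes a chaperone that restrains the glucocorticoid receptor, averaged lower in B6.C3H-6T by a difference of -0.27. Over all genes, B6.C3H-6T lay above C57BL/6J without overlap in 10.3% and below it in 7.49%. None of the 10 passed an adjusted p under 0.05 in limma, against 0.0715% of all genes, of which 0.011% were higher and 0.0605% lower. With adjustment over all probe sets, of which 0.0577% passed, again 0 of the 10 did. Of the 10 genes, 4, all higher, had an unadjusted p under 0.05, against 6.36% of all genes that were higher at that level. Nothing is read from these counts, since the same contrast had been seen when the genes were chosen.

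The arrays were alike in their overall properties. Their medians ran from 6.07 to 6.11 (log2), and the correlation of any pair of arrays across probe sets, which do not count as replicates, from 0.993 to 0.997. The 3′ minus 5′ signal of the Actb control ran from 0.53 to 0.70 in B6.C3H-6T and from 0.59 to 0.61 in C57BL/6J. Hepatocyte markers were high throughout, with the albumin gene Alb between 14.50 and 14.56 in all mice. The 7 measured hepatocyte markers differed between the strains by -0.04 to 0.08. Markers of Kupffer and other myeloid cells had lower means in B6.C3H-6T for 9 of 9 genes. Their median difference was -0.26, with a summed linear signal of 7070 to 8461 in B6.C3H-6T mice and 8803 to 10173 in C57BL/6J mice. The summed signal of the neutrophil list was 410 to 421 in B6.C3H-6T and 391 to 402 in C57BL/6J. That of the pancreas list was 368 to 387 and 328 to 341. Both sums were higher in B6.C3H-6T without overlap. Of the neutrophil markers 4 had higher and 2 lower means in B6.C3H-6T, the 2 being S100a8 (-0.10) and S100a9 (-0.18). All 4 pancreas markers had higher means. At or below the median level of all probe sets lay 3 of 6 neutrophil and 3 of 4 pancreas markers. RMA gives no value of 0, so no marker could be read as absent, and the part of these cell types in the results was not tested.

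The promoters of 5 of the genes show which letters lie at their starts. The windows, of 300 bases each, are those of RefSeq on GRCm38.p6, from 250 bases before to 50 after a transcription start. Klf15 and Ddit4 are shown as the genes that gave the group its name, at chr6:90462326-90462625 on the plus strand and chr10:59951721-59952020 on the minus strand. Capitals in Klf15 mark the E-box CACGTG, which circadian clock factors and USF proteins are known to bind, and Ddit4 has no capitals since no motif named here but the metal response element was found in its window.

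Klf15: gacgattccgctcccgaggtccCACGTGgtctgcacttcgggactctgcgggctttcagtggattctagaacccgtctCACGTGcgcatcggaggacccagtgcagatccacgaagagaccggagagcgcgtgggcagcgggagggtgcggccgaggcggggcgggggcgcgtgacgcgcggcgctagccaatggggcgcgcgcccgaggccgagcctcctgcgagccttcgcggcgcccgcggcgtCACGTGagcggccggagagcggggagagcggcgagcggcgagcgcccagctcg

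Ddit4: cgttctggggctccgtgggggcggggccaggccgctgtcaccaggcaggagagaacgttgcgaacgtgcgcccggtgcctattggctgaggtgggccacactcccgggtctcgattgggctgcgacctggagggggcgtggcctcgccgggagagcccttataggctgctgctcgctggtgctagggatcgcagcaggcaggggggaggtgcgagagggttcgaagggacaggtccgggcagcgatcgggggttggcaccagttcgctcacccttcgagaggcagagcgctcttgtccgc

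Tsc22d3 and Sgk1 are shown because only these members held letters of the glucocorticoid response element in the windows searched. The Tsc22d3 window lies at chrX:140600473-140600772 on the minus strand and has a single arm of the element in capitals, AGAACA or its reverse complement. The Sgk1 window lies at chr10:21993640-21993939 on the plus strand and has the whole palindrome in capitals. The palindrome is AGAACA and, after 3 bases of any kind, its reverse complement TGTTCT.

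Tsc22d3: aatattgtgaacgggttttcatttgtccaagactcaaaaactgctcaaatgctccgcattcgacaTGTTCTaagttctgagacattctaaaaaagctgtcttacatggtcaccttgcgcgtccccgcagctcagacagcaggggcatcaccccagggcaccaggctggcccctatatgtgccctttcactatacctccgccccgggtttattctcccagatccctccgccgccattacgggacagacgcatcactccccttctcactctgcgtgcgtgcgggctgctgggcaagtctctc

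Sgk1: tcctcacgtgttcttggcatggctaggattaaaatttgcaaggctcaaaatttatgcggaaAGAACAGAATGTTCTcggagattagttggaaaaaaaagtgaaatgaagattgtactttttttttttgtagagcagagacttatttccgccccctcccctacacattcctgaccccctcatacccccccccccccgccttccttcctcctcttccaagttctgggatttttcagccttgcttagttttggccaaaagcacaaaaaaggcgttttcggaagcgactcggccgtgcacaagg

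Mt2 is shown as a gene of the group whose level overlapped between the strains. Its window lies at chr8:94172368-94172667 on the plus strand, and capitals mark the metal response element in the forms TGCACNC and TGCGCNC, through which the zinc sensor MTF1 is known to act.

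Mt2: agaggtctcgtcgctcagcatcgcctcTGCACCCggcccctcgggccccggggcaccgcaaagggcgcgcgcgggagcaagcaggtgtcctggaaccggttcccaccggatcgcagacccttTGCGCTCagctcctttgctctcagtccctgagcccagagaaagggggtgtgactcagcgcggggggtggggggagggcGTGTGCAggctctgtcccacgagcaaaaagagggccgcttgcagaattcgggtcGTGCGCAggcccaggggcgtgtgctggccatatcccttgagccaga

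All motifs were searched on both strands. All 10 genes had at least 1 window, 18 windows in all, because Sgk1, Tsc22d3 and Cdkn1a have several starts. The whole glucocorticoid element was found in 1 of these windows, that of Sgk1, and in 3 of all 32851 windows of the table (0.00913%). Its single arm was found in 4 windows, 3 of Sgk1 and 1 of Tsc22d3, against 19.0% of all windows, and both arms of the whole element in the Sgk1 window printed above count among its matches. The E-box occurred 3 times in the Klf15 window, once each in windows of Sgk1, Dusp1 and Fkbp5, and in 7.15% of all windows. As many as 3 E-boxes were found in 0.0883% of windows. The metal response element was found 4 times in Mt2 and 3 times in Mt1. The form TGCACNC occurred in 12.6% of all windows and TGCGCNC in 15.4%, and Klf15, where it overlaps an E-box, Ddit4, Dusp1 and Sgk1 each held 1 copy of TGCGCNC. The cyclic AMP response element TGACGTCA was found in the Dusp1 window and in 1.79% of all windows. A match is a run of letters, and the arrays do not show whether a factor was bound.

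Among the transcription factors of the group, Klf15 and Klf9 behaved differently. Klf15, a zinc finger factor that glucocorticoids induce and that drives amino acid breakdown and glucose production in liver, measured, on the log2 scale used throughout, 10.70, 11.00 and 10.81 in B6.C3H-6T replicates 1, 2 and 3, against 10.31, 10.38 and 10.29 in the C57BL/6J mice. Every B6.C3H-6T mouse lay above every C57BL/6J mouse, and the C57BL/6J mice lay close together. The means were 10.84 ± 0.15 and 10.33 ± 0.05 (SD, n = 3 each), a difference of 0.51 ± 0.08 (SE), or 1.43-fold. Its single probe set is the only measure of it here, and a sequence difference between the strains under its probes, which C3H DNA on chromosome 6 could bring, cannot be told apart from a difference in RNA.

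Klf9, a related factor that is a direct target of the glucocorticoid receptor, measured 10.91, 11.10 and 10.64 in B6.C3H-6T and 10.83, 10.89 and 10.89 in C57BL/6J. The C57BL/6J mice lay inside the range of the B6.C3H-6T mice. The difference was 0.01 ± 0.11, and it turned to the other sign after centring or repeated quantile normalisation of the arrays. All 7 probe sets of Klf9 overlapped between the strains, with differences from -0.07 to 0.10. Of 14 other measured members of the Klf family, 11 were higher and 3 lower in B6.C3H-6T, with a median of 0.10, and 0 passed in limma. At an unadjusted p under 0.05 there were 4, all higher, against 6.36% of all genes higher at that level. Klf1, known as a red cell factor, differed by 0.26 ± 0.07 (limma adjusted p = 0.272), Klf2, known from endothelium, by 0.32 ± 0.10 (adjusted p = 0.289) and Klf13 by 0.37 ± 0.13 (adjusted p = 0.348).

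Ddit4, which encodes the inhibitor REDD1 of the growth kinase complex TORC1 and is induced by glucocorticoids, hypoxia and stress, had the largest difference of the group. It measured 7.90, 8.48 and 8.23 in B6.C3H-6T and 7.50, 7.16 and 7.33 in C57BL/6J. The lowest B6.C3H-6T mouse stood above the highest C57BL/6J mouse, and both strains varied more than for Klf15. The means were 8.20 ± 0.29 and 7.33 ± 0.17 (SD, n = 3 each), a difference of 0.87 ± 0.14 (1.83-fold), again from a single probe set.

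Tsc22d3, known as GILZ, is a leucine zipper protein through which glucocorticoids dampen inflammation, and it is among the most direct readouts of the receptor. It measured 9.93, 10.24 and 10.46 in B6.C3H-6T and 9.68, 9.65 and 9.86 in C57BL/6J. The strains did not overlap, though B6.C3H-6T replicate 1 exceeded the highest C57BL/6J mouse by little. The difference was 0.48 ± 0.13 (1.40-fold). All 4 of its probe sets were higher in B6.C3H-6T, by 0.13 to 0.48, and 2 of the 4 did so without overlap, against 9.58% of all probe sets.

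Dusp1, a phosphatase that switches off MAP kinases, measured 9.20, 10.30 and 9.28 in B6.C3H-6T and 8.83, 8.82 and 8.75 in C57BL/6J. B6.C3H-6T replicate 2 stood far above the other mice of its strain, which were themselves above all C57BL/6J mice. The means were 9.59 ± 0.61 and 8.80 ± 0.04 (SD, n = 3 each), and the difference of 0.80 ± 0.24 (1.74-fold) became 0.44 without that mouse. Dusp1 is also an immediate early gene. A list of other immediate early genes, which also holds the MAP kinase genes Mapk14 and Mapk8, went both ways. Of 16 genes on that list, 6 were higher and 10 lower in B6.C3H-6T, with a median of -0.06, and 0 passed in limma. At an unadjusted p under 0.05 there were 2, both lower, against 5.82% of all genes lower at that level.

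Egr1, an early growth response factor, measured 8.17, 8.15 and 8.10 in B6.C3H-6T and 9.88, 9.05 and 8.73 in C57BL/6J. All B6.C3H-6T mice were lower, and the C57BL/6J mice spread widely, with replicate 1 on top. The difference was -1.08 ± 0.23 (limma adjusted p = 0.195). Jun differed by -0.70 ± 0.27 (adjusted p = 0.371) and Zfp36, which encodes a protein that destabilises cytokine mRNA, by 0.24 ± 0.11 (adjusted p = 0.443).

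**Figure D1:**
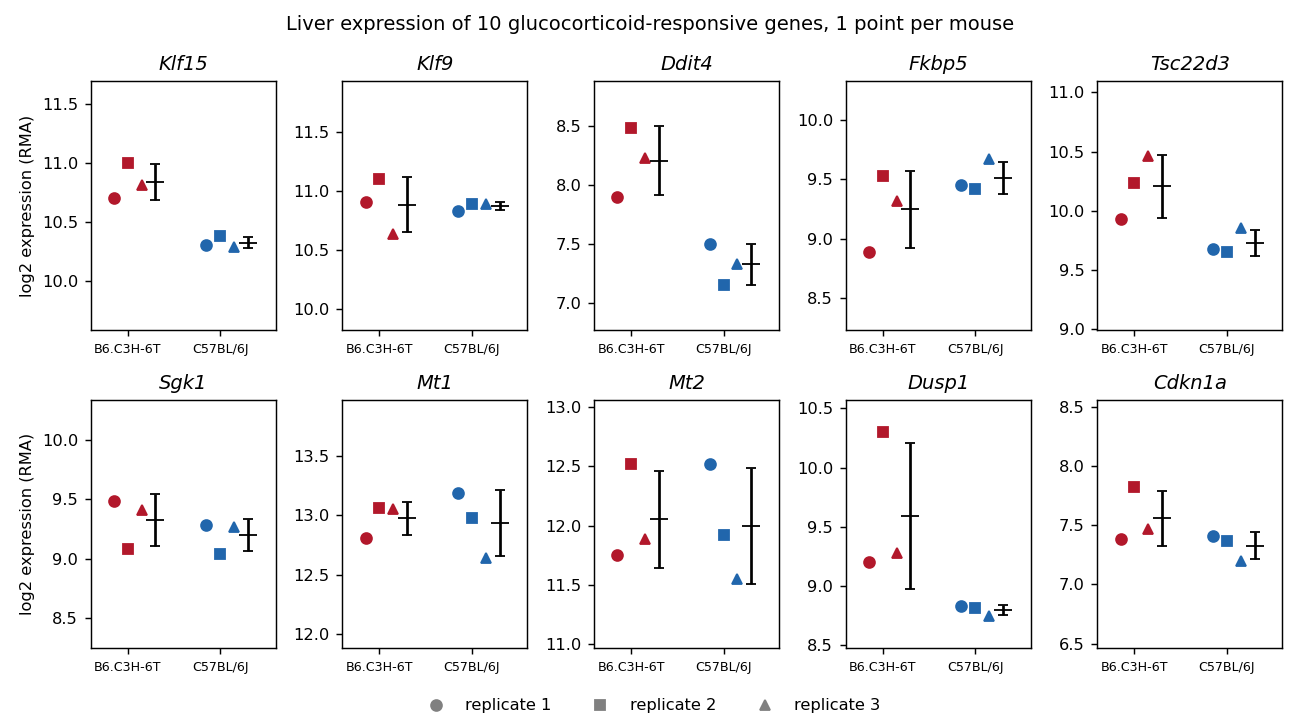
The 10 genes in each mouse on the log2 scale of the deposited values (y axes, all of the same span), with B6.C3H-6T at the left and C57BL/6J at the right of each panel; symbols mark the replicate, and bars show mean ± SD of 3 mice. Klf15, Ddit4, Tsc22d3 and Dusp1 separate the strains, while Klf9, Mt1 and Mt2 overlap with differences of 0.06 or less.

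Fkbp5 encodes an HSP90 co-chaperone that lowers the receptor's affinity for hormone and is itself strongly induced by glucocorticoids. It measured 8.89, 9.53 and 9.32 in B6.C3H-6T and 9.45, 9.42 and 9.67 in C57BL/6J. The highest mouse of all was a C57BL/6J mouse and the lowest a B6.C3H-6T mouse, and the strains overlapped. The difference was -0.27 ± 0.15, and all 3 probe sets of Fkbp5 had a negative difference, from -0.27 to -0.05. It stayed negative without each array in turn, between -0.41 and -0.09.

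Sgk1, a kinase of salt and nutrient transport, whose window above holds the whole glucocorticoid element, measured 9.49, 9.08 and 9.41 in B6.C3H-6T and 9.28, 9.04 and 9.27 in C57BL/6J. Replicate 2 was the lowest of each strain, and the strains overlapped. The difference was 0.13 ± 0.11. Cdkn1a, which encodes the cell cycle inhibitor p21, measured 7.38, 7.82 and 7.47 in B6.C3H-6T and 7.41, 7.37 and 7.20 in C57BL/6J, a difference of 0.23 ± 0.11. Only B6.C3H-6T replicate 2 stood clearly apart, and without it the difference was 0.10. The dimmer of its 2 probe sets differed by 0.24 and did not overlap between the strains.

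The metallothionein genes Mt1 and Mt2, whose products bind zinc and copper, are induced by metals, glucocorticoids and inflammation. Mt2 measured 11.75, 12.52 and 11.89 in B6.C3H-6T and 12.52, 11.92 and 11.55 in C57BL/6J. The ranges of the strains nearly coincided, and the difference was 0.06 ± 0.25. Mt1 measured 12.81, 13.06 and 13.05 in B6.C3H-6T and 13.19, 12.98 and 12.64 in C57BL/6J, a difference of 0.03 ± 0.13 that turned to the other sign after repeated quantile normalisation. In C57BL/6J, replicate 1 had the highest and replicate 3 the lowest value of both genes, as it did for Egr1 and Jun. Of 13 other genes of the metal response, 5 were higher and 8 lower, with a median of -0.03. In limma 0 passed, and 1 gene stood at an unadjusted p under 0.05, the zinc importer gene Slc39a4 (-0.27 ± 0.09, adjusted p = 0.309). Over all genes, 5.82% were lower at that level. Mt3, a metallothionein known from brain, differed by 0.13 ± 0.07 (adjusted p = 0.494) and Gclc, a glutathione synthesis gene, by -0.23 ± 0.14 (adjusted p = 0.53).

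**Figure D2:**
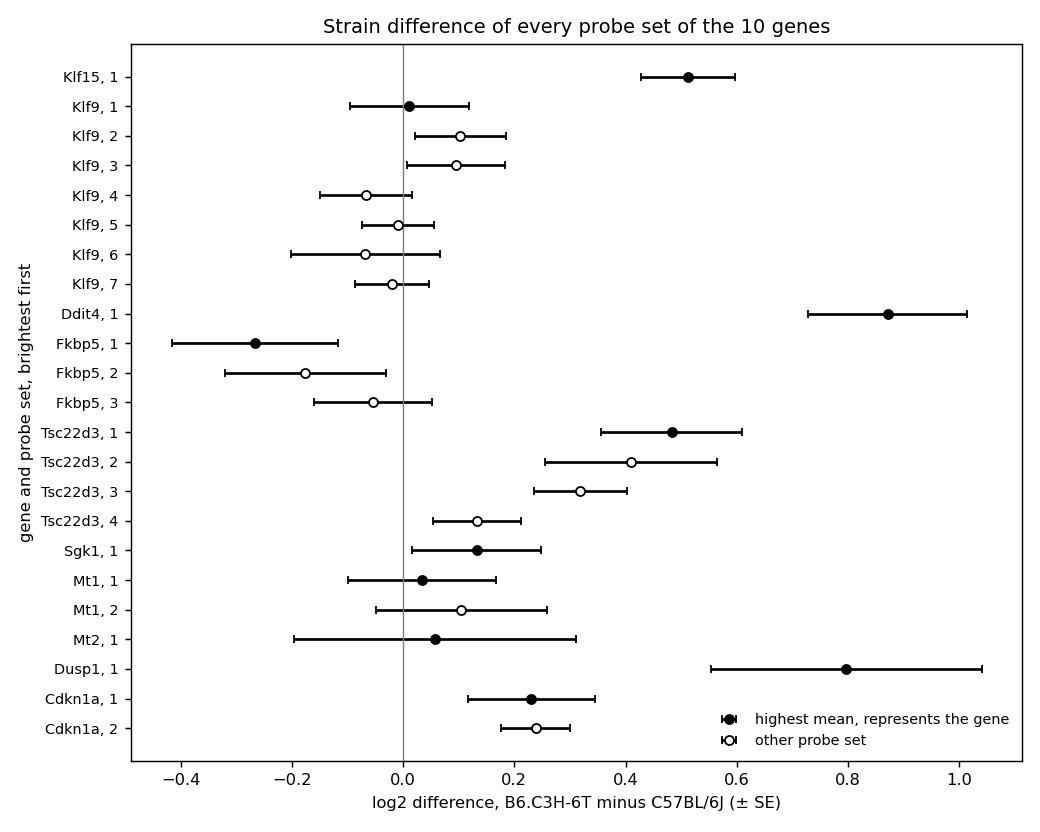
Log2 difference, B6.C3H-6T minus C57BL/6J, with its SE (x axis) for each of the 23 probe sets of the 10 genes (y axis, brightest probe set of a gene first); filled points represent the gene in the values above. The 7 probe sets of Klf9 lie between -0.07 and 0.10, the 3 of Fkbp5 below 0 and the 4 of Tsc22d3 above 0.

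The mice within a strain also differed in a pattern. B6.C3H-6T replicate 2 had the highest value of its strain in 8 of the 10 genes, with Tsc22d3 and Sgk1 as the exceptions, against 30.8% of all genes. For Mt1 its lead over replicate 3 was within 0.01. B6.C3H-6T replicate 1 was below its strain mean in 8 genes, by 0.31 for Ddit4 and 0.36 for Fkbp5. Without replicate 2, 6 of the 10 genes in place of 9 were higher in B6.C3H-6T, as Klf9, Mt1 and Mt2 then had negative differences, and Klf15, Ddit4 and Tsc22d3 still differed by 0.43, 0.73 and 0.47. In C57BL/6J, Klf15 stayed within 0.05 of its mean, while Mt2 ranged from 0.53 above to 0.45 below.

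**Figure D3:**
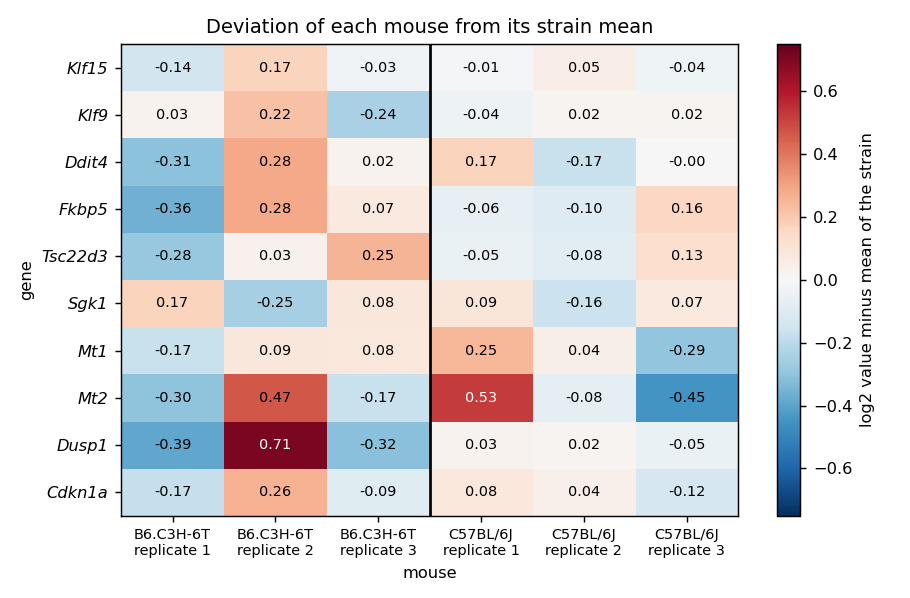
Deviation of each mouse from the mean of its strain, in log2 units (colour and printed value), for the 10 genes (rows) and 6 mice (columns, B6.C3H-6T at the left). B6.C3H-6T replicate 2 is above its strain mean in 9 genes, most of all in Dusp1 with 0.71, and below it in Sgk1 with -0.25.

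The genes of hormone supply and reception showed no shift that passed the test. The receptor gene Nr3c1 measured 9.47, 9.46 and 9.29 in B6.C3H-6T and 9.54, 9.51 and 9.25 in C57BL/6J, a difference of -0.03 ± 0.09 (limma adjusted p = 0.929). Hsd11b1, whose enzyme regenerates active glucocorticoid inside hepatocytes, measured 13.31, 13.36 and 13.16 in B6.C3H-6T and 13.12, 13.14 and 12.94 in C57BL/6J. Its strains did not overlap, and the difference of 0.20 ± 0.08 did not pass (adjusted p = 0.379). Serpina6, the gene of the corticosteroid-binding globulin that liver secretes, differed by 0.33 ± 0.16 with overlap (adjusted p = 0.45).

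Akr1d1, a reductase that inactivates steroids and lies on chromosome 6, differed by 0.43 ± 0.13 (adjusted p = 0.296), the smallest p of these genes. Of 15 measured genes of receptor and hormone handling, 8 were higher and 7 lower, with a median of 0.05. In limma 0 passed and 2 had an unadjusted p under 0.05, Akr1d1 and Hsd11b1, both higher, against 6.36% of all genes. Corticosterone itself was not measured in the data used here.

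A further list of 25 genes that glucocorticoids are known to act on, none of them among the 10, gave 24 measured genes, of which 17 were higher and 7 lower in B6.C3H-6T. Their median difference was 0.20, against 0.02 over all genes, of which 56.1% were higher. In limma 0 of the 24 passed, and at an unadjusted p under 0.05 there were 10 higher (6.36% of all genes) and 2 lower (5.82% of all genes). The higher count was 6 without C57BL/6J replicate 3 and was 7 without B6.C3H-6T replicate 2. Several of these genes also answer to other signals, and Tat, Lpin1 and Igfbp1 had been described from these arrays before the list was written. The counts are therefore not independent of earlier results. Pdk4, which glucocorticoids also induce and which was lower in B6.C3H-6T, was not on this list and is given under other observations.

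Among the 8 genes of smallest p, 4 encode enzymes that handle amino acids or their nitrogen. Nothing is read from this number, since such genes were put on the list when it was written. Tat, the tyrosine aminotransferase that is a classical glucocorticoid target, measured 12.81, 13.17 and 13.00 in B6.C3H-6T and 12.63, 12.50 and 12.59 in C57BL/6J. The strains did not overlap, and the difference was 0.42 ± 0.09 (limma adjusted p = 0.2). The urea cycle gene Cps1 differed by 0.26 ± 0.07 (adjusted p = 0.225), the alanine aminotransferase gene Gpt by 0.36 ± 0.10 (adjusted p = 0.265) and Tdo2, which opens tryptophan breakdown, by 0.31 ± 0.11 (adjusted p = 0.341). In all 3 genes the strains did not overlap. Slc38a2, an amino acid importer, differed by 0.22 ± 0.08, also without overlap (adjusted p = 0.339). Of the 24 genes, 9 were higher without overlap, against 10.3% of all genes, and 1 was lower, against 7.49%.

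Lpin1, a phosphatidate phosphatase of fat synthesis that glucocorticoids induce in liver, measured 9.83, 11.06 and 9.92 in B6.C3H-6T and 9.20, 8.86 and 9.08 in C57BL/6J. As for Dusp1, B6.C3H-6T replicate 2 stood far above its strain. The difference was 1.22 ± 0.28 (adjusted p = 0.211), and Lpin1 passed without that mouse but under no other alternative. Nothing is read from that call, since Lpin1 had been described from these arrays before. Errfi1, a feedback inhibitor of the EGF receptor, differed by 0.37 ± 0.09 without overlap (adjusted p = 0.225). Gadd45b, a stress-induced gene of the same list, differed the other way by -0.33 ± 0.11 (adjusted p = 0.321).

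**Figure D4:**
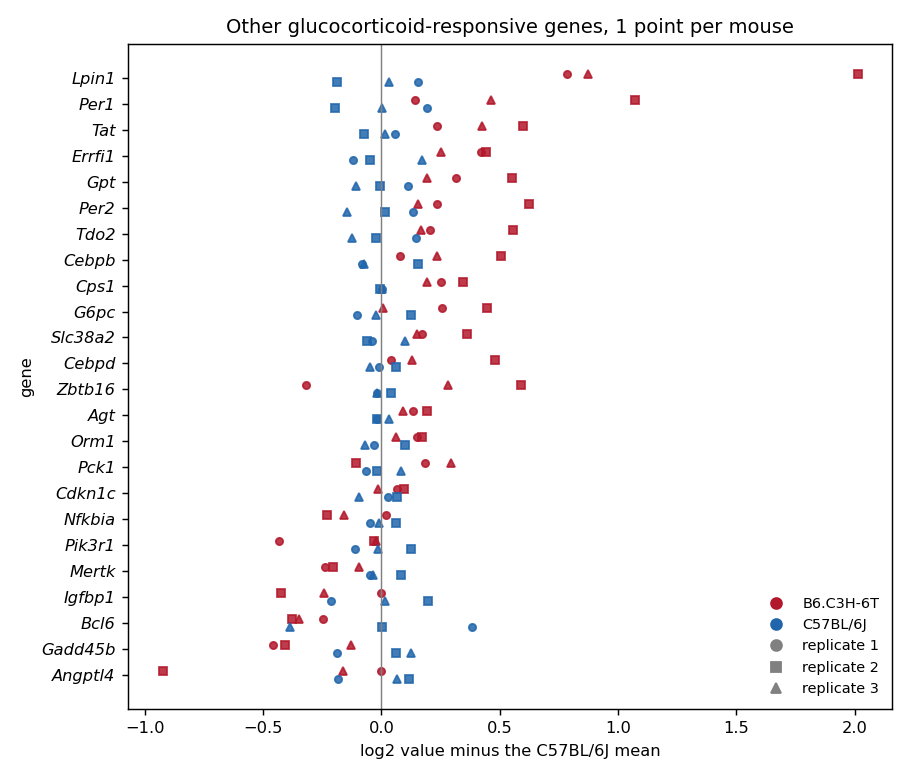
Value of each mouse less the C57BL/6J mean of that gene, in log2 units (x axis), for 24 other glucocorticoid-responsive genes (y axis, sorted by strain difference); red marks B6.C3H-6T, blue C57BL/6J, and symbols the replicate. B6.C3H-6T replicate 2 is the highest of its strain in 16 of the 24 genes, and Lpin1 has the largest difference, 1.22.

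Genes of the circadian clock were set beside the group, since several of its genes have a daily rhythm in liver. Per1, a clock gene that glucocorticoids also induce, measured 7.91, 8.84 and 8.23 in B6.C3H-6T and 7.96, 7.57 and 7.77 in C57BL/6J. Replicate 2 was the highest B6.C3H-6T mouse, and replicate 1 lay among the C57BL/6J mice. The difference was 0.56 ± 0.20 (limma adjusted p = 0.345), that of Per2 0.34 ± 0.12 (adjusted p = 0.348) and that of Per3 0.42 ± 0.18 (adjusted p = 0.394). Of 17 measured clock genes 13 were higher and 4 lower, with a median of 0.11, and B6.C3H-6T replicate 2 was the highest of its strain in 12, against 30.8% of all genes. It was the lowest of its strain for Clock, Nr1d1, Nfil3 and Bhlhe41. The C57BL/6J mice also differed among themselves. Dbp measured 9.70, 9.32 and 8.50 in C57BL/6J replicates 1, 2 and 3, and Nr1d1, Nr1d2 and Tef fell in the same order. Arntl did not, with its highest C57BL/6J value in replicate 3. None of the 17 clock genes passed in limma, and 3, all higher, had an unadjusted p under 0.05, against 6.36% of all genes. These were Per1, Per2 and Per3. Per1 and Per2 are also on the further glucocorticoid list, so the counts of the clock list and of that list are not separate observations. The labels used here give no time of day for the dissection, and its part in the values of Klf15, Klf9, Dusp1 and the other genes was not tested.

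Signals that act on Ddit4 apart from glucocorticoids were set beside it. Of 20 genes of TORC1 and amino acid stress 12 were higher and 8 lower, with a median of 0.05, and 0 passed in limma. At an unadjusted p under 0.05 there were 3 higher and 2 lower, against 6.36% and 5.82% of all genes. Sesn3, a sestrin that restrains TORC1, differed by 0.27 ± 0.07 (adjusted p = 0.253), Chac1, a glutathione-degrading enzyme induced by ATF4, by 0.49 ± 0.14 (adjusted p = 0.272) and the fasting hormone gene Fgf21 by -0.34 ± 0.11 (adjusted p = 0.29). Of 10 hypoxia genes 6 were higher and 4 lower, with a median of 0.01. None passed in limma, and at an unadjusted p under 0.05 there was 1, Egln3, which was lower, against 5.82% of all genes. The oxygen sensor gene Egln3 differed by -0.31 ± 0.10 (adjusted p = 0.288), Adm by 0.12 ± 0.06 (adjusted p = 0.46) and Pfkfb3 by 0.14 ± 0.07 (adjusted p = 0.479).

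For Cdkn1a, 16 measured p53 targets and cell cycle genes were set beside it, of which 4 were higher and 12 lower, with a median of -0.07. In limma 0 passed, and 3, all lower, stood at an unadjusted p under 0.05, against 5.82% of all genes. Cdk2 differed by -0.28 ± 0.09 (adjusted p = 0.291), the cyclin gene Ccnd1 by -0.93 ± 0.31 (adjusted p = 0.32) and Cdk4 by -0.21 ± 0.08 (adjusted p = 0.374).

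Klf15 lies on chromosome 6, the chromosome that carries C3H DNA, while the other 9 genes lie elsewhere: Ddit4 and Sgk1 on chromosome 10, Dusp1, Fkbp5 and Cdkn1a on 17, Mt1 and Mt2 on 8, Klf9 on 19 and Tsc22d3 on X. Where that C3H segment begins and ends is not stated in the labels. Of the 5 measured genes on each side of Klf15, 3 were higher in B6.C3H-6T without overlap, against 10.3% of all genes, and 1 was lower, against 7.49%. The next gene, Aldh1l1, an enzyme of folate metabolism in liver, measured 13.30, 13.55 and 13.21 in B6.C3H-6T and 13.01, 12.88 and 12.81 in C57BL/6J, a difference of 0.45 ± 0.10 (limma adjusted p = 0.19).

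Iqsec1, which encodes an exchange factor for ARF proteins, differed by 0.42 ± 0.09 (adjusted p = 0.184), Uroc1, the urocanase of histidine breakdown, by 0.32 ± 0.10 (adjusted p = 0.294) and Zxdc, just before Klf15, by -0.13 ± 0.06 (adjusted p = 0.454). The remaining 6 neighbours, Vmn1r54, BC048671, Chst13, Slc41a3, Nup210 and Hdac11, overlapped between the strains and differed by -0.24 to 0.22. A link to position on the chromosome was not tested. As for Klf15, a sequence difference under the probes of these neighbours cannot be told apart from a difference in RNA. The same holds for Akr1d1.

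The 5 genes whose values over the 6 arrays were most like the mean of Klf15 and Ddit4 were 4933423K11Rik (Pearson r = 0.9992), 0610005C13Rik, Yipf7, Ppp4r1l-ps and Ubxn10 (r = 0.9885). Their strain differences, from 0.14 for 4933423K11Rik to 0.32 for Ubxn10, were smaller than those of Klf15 and Ddit4. As 4933423K11Rik lies on chromosome 6, the limit on sequence under the probes holds for it too. With the strain means taken out, the 5 most alike were Usp2, which encodes a deubiquitinase with a daily rhythm in liver, Vmn2r84, Arhgef26, 4933423K11Rik and Tatdn1 (r from 0.9965 to 0.9984). Usp2 differed by 0.35 and Arhgef26 by 0.35, while Vmn2r84, with a mean level of 3.67, and Tatdn1 differed by 0.03 or less. These are the highest values among 18194 genes over 6 arrays and describe likeness in these mice only.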

How the data were processed

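Liver RNA of 3 B6.C3H-6T and 3 C57BL/6J mice was hybridised to Affymetrix arrays, one for each mouse. The authors deposited log2 expression for each probe set. The submitters' processing notes name RMA and affy, and the sources used here give no versions of them. RMA evens out the arrays' distributions, so a change shared by most genes would not show. Labelling started at the poly(A) tail per the labels' protocols, and probe sets therefore see chiefly the 3′ ends of transcripts.

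Of 45101 probe sets, 64 controls were left out. Names came from the platform annotation, with symbols updated by gene ID through a RefSeq table of GRCm38.p6. A gene with several probe sets is represented by the one of highest average signal across the 6 arrays. No dim probe set was left out. The strain difference was fitted in R 4.3.3 with limma 3.58.1, using lmFit and eBayes without covariates, over 18194 genes, B6.C3H-6T minus C57BL/6J, with Benjamini-Hochberg adjustment over all genes and 0.05 as the threshold. SE are limma's moderated ones. The fit was tested on simulated data with independent genes. The recovery required there was for a difference larger than any measured here, so it does not speak for smaller ones. With 3 mice per strain, the number of arrays limits the precision.

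The 10 genes, 11 pathway lists, 13 marker lists and the motifs were chosen with earlier results of these data known. On more than 1 pathway list were 9 genes. The further glucocorticoid list shares Pck1, G6pc and Igfbp1 with the insulin and FoxO list, and Orm1 with the acute phase list. Bmal1 and G6pc1 were looked up as Arntl and G6pc. Named are the 10 genes, of each pathway list those past the threshold and otherwise the 3 of smallest p (8 for the further glucocorticoid list), Nr3c1, Hsd11b1 and Serpina6, the 5 genes most like Klf15 and Ddit4 by either measure and 5 measured neighbours of Klf15 on each side. Alternatives were other probe set rules, scaling, filtering, variance and adjustment choices, array weights and leaving out each array. The labels give no batch, and a replicate number, given in sample order, only names a mouse. Each sample is 1 mouse per the series' design text.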

Additional observations from a re-analysis of the deposited data

How the results depend on the processing

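No paired analysis was possible because the labels give every mouse a separate pedigree number and link no mouse of one strain to a mouse of the other. Of the 15 alternatives, those that kept all 6 arrays left the number of the 10 genes past the threshold at 0. Leaving out 1 array gave 0 to 1, the 1 gene being Ddit4 without B6.C3H-6T replicate 1, its lowest mouse of that strain. Ddit4 was selected on this difference, so nothing is read from that call. The median difference of the 10 genes ran from 0.15 to 0.30 and the number higher from 6 to 9. Klf15 ran from 0.43 to 0.58, Ddit4 from 0.73 to 1.02, Tsc22d3 from 0.34 to 0.62 and Dusp1 from 0.44 to 0.99, all above 0, and Fkbp5 from -0.41 to -0.09. On the pathway lists the number past the threshold was 0 to 1 without 1 array, with Lpin1 as the 1 gene without B6.C3H-6T replicate 2. Nothing is read from that call either. Of the further glucocorticoid list, 16 or 17 were higher under all alternatives, and the 10 at an unadjusted p under 0.05 became 6 without moderated variances and 6 to 12 without 1 array. Over all genes the 13 past the threshold became 0 without moderated variances, where 3 of the 10 genes still had an unadjusted p under 0.05, and 6 to 18 without 1 array, 6 without C57BL/6J replicate 2 and 7 without C57BL/6J replicate 3. The cause of these shifts was not tested. Single probe sets carry Klf15, Ddit4, Sgk1, Mt2 and Dusp1.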

Other observations

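The insulin and FoxO list, which does not hold any of the 10 genes, went both ways. Of 15 measured genes 9 were higher and 6 lower in B6.C3H-6T, with a median difference of 0.03, and none passed in limma. At an unadjusted p under 0.05 there were 5 higher and 1 lower, against 6.36% and 5.82% of all genes. Pdk4, a brake on glucose oxidation that fasting and glucocorticoids induce, measured 7.30, 6.63 and 7.29 in B6.C3H-6T and 7.72, 8.35 and 8.10 in C57BL/6J. All B6.C3H-6T mice were lower, with replicate 2 the lowest, and the difference was -0.98 ± 0.20 (limma adjusted p = 0.177). Pdk4 lies on chromosome 6, so a sequence difference under its probes cannot be told apart from a difference in RNA. Foxo3 differed by 0.36 ± 0.09 (adjusted p = 0.222), and Sesn3, given above, is also on this list.

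Acute phase genes, which glucocorticoids raise together with cytokines, were higher in 11 and lower in 7 of 18 cases, with a median of 0.04. None passed in limma, where 2, both higher, had an unadjusted p under 0.05, against 6.36% of all genes. Orm2, an acid glycoprotein gene, measured 8.32, 8.61 and 8.68 in B6.C3H-6T and 8.11, 8.11 and 7.94 in C57BL/6J, a difference of 0.49 ± 0.10 (adjusted p = 0.177). The strains did not overlap. The interleukin receptor gene Il6ra differed by 0.36 ± 0.12 (adjusted p = 0.315) and Lbp by -0.20 ± 0.10 (adjusted p = 0.448).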
